A study of Homo sapiens with 4 samples.

Results

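Regions of acetylated histone H3 that lay beside promoters rather than on them were examined in H929 cells, a human line established from multiple myeloma, using peaks from ChIP-seq (immunoprecipitated chromatin, sequenced). They are the peaks that the authors' annotation places 1 to 3 kb from a transcription start site (TSS), in the classes 1 to 2 kb and 2 to 3 kb, and they are called promoter-flank peaks here, while a peak annotated within 1 kb of a TSS is called a TSS peak. There were 321 among 9780 peaks in cells that overexpressed AIMP1 and 347 among 4828 peaks in wild-type cells, 668 of 14608 in all. The series holds 4 samples, an acetyl-H3 and an input library for H929 cells overexpressing AIMP1 and the same for wild-type H929 cells. AIMP1 is named in the series title, and the sample labels give the genotype only as overexpression or wild type. How AIMP1 was delivered, what promoter drove it and whether the cells were 1 clone is not given in the sources used here. The inputs were not analysed here. With 1 acetyl-H3 library per group and no replicates, no test between groups was possible, and a difference between the lists cannot be told apart from a difference between 2 libraries. Intervals of shares are 95% intervals by the exact binomial method of Clopper and Pearson, and those of medians are 95% intervals from binomial order statistics. They cover counting error only and treat peaks as independent. Read depth is unknown, and a missing peak means that none was listed, not that acetylation was absent.

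Nucleosomes just beside an active start site carry acetylated H3, while the start site itself is usually depleted of nucleosomes, so acetylation at a promoter typically forms a shoulder on either side. A peak further out can be the outer edge of such a shoulder, the start of another transcript or a nearby enhancer. Acetylation neutralises charge on the histone tail and is read by bromodomain proteins, and myeloma cells are known for their dependence on such enhancers. AIMP1 is a scaffold protein that holds aminoacyl-tRNA synthetases together in a complex.

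At 12 promoter-flank peaks, 10 of overexpressing and 2 of wild-type cells, the peak itself held a RefSeq start site that was not the one used in the authors' annotation. The windows below run from 250 bases before to 50 bases after that start, in GRCh38.p14 coordinates from RefSeq, on the strand of the transcript, with CpG dinucleotides in capitals. They are shown because these peaks were called flank peaks by distance to 1 TSS while covering another start, of another gene in 4 of the windows and of the annotated gene itself for PRDM7 and GATA3. LOC124902209 (chr9:91421372-91421671, plus strand) lay in the peak of NFIL3, LINC01096 (chr4:13547775-13548074, minus strand) in that of NKX3-2, LOC124903549 (chr15:89358617-89358916, minus strand) in that of MIR9-3HG and LOC105372948 (chr22:22882379-22882678, minus strand) in that of MIR5571, all in the overexpression list. PRDM7 (chr16:90077282-90077581, minus strand) lay in a wild-type peak annotated to PRDM7, and the RefSeq start of GATA3 itself (chr10:8060207-8060506, plus strand) in peaks of both lists, though the first bases of its window lay outside the overexpression peak.
LOC124902209: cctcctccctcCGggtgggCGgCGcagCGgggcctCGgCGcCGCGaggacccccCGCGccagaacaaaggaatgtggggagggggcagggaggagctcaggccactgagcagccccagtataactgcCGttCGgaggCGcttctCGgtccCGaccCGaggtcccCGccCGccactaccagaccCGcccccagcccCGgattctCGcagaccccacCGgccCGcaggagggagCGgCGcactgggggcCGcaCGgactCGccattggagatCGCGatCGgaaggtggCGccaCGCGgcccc
LINC01096: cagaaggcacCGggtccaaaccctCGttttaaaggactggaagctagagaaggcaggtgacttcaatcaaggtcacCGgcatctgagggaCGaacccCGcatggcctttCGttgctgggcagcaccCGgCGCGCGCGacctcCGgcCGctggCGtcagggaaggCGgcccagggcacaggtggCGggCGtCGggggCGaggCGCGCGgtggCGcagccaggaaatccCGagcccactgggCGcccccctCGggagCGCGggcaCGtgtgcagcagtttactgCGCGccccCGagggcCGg
LOC124903549: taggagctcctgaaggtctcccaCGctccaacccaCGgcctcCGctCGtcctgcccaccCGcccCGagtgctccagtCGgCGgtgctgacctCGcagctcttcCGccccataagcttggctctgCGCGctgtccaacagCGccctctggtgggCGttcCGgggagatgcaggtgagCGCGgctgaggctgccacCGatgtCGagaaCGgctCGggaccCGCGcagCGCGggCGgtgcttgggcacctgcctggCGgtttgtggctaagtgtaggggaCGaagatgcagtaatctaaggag
LOC105372948: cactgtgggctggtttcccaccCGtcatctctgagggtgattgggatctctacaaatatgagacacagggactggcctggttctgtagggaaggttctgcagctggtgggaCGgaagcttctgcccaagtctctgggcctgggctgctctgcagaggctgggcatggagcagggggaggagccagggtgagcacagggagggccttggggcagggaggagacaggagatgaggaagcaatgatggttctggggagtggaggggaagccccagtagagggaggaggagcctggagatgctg
PRDM7: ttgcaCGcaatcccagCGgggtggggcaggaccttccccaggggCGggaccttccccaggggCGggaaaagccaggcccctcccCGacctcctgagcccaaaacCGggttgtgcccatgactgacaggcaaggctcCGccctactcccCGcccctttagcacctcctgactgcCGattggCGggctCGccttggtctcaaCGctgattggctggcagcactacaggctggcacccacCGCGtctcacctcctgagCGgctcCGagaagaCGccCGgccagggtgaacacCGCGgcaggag
GATA3: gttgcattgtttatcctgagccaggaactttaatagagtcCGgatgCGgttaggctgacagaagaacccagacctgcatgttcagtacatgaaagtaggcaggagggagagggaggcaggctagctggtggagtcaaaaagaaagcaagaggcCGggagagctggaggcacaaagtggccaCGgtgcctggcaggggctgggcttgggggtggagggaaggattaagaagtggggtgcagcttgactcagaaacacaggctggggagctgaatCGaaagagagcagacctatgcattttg

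The CpG content of these windows differed widely. The LOC124902209, LINC01096 and LOC124903549 windows had 34, 33 and 28 CpG, with observed over expected ratios of 0.830, 0.903 and 0.832. The PRDM7 window had 20 CpG and a ratio of 0.583, close to the median of 0.580 over 27305 RefSeq promoters. The GATA3 and LOC105372948 windows were poor in CpG, with 5 and 2 CpG and ratios of 0.263 and 0.0828. None of the 6 windows held TATAAA, searched on both strands, which 12.0% of all RefSeq promoters of that length hold. CCAAT was present at LOC124902209, LOC105372948 and PRDM7, and 35.7% of all promoters hold it. GGGCGG was present at LOC124902209, LOC124903549 and PRDM7, against 44.6% of all promoters.

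Promoter-flank peaks took a smaller share of the peaks of overexpressing cells than of wild-type cells. They made up 3.28% of overexpression peaks (95% interval 2.94 to 3.65) and 7.19% of wild-type peaks (6.47 to 7.95). The number of such peaks was nearly equal, at 321 and 347, while peaks within 1 kb of a TSS numbered 7979 in overexpressing cells and 1392 in wild-type cells. Peaks outside promoters numbered 1480 in overexpressing cells and 3089 in wild-type cells. Both distance classes were filled, with 179 peaks at 1 to 2 kb and 142 at 2 to 3 kb in the overexpression list, against 199 and 148 in the wild-type list. With the overexpression list cut to its 4828 strongest peaks by p, 46 promoter-flank peaks were left, 0.953% of that list.

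The limits of the classes were set by distance alone. In the overexpression list, the peak of AEN at 991 bp fell just outside the inner limit and that of IRX2 at 1002 bp just inside it. The peak of BMF at 3000 bp fell just inside the outer limit and that of BORCS6 at 3002 bp just outside. In the wild-type list, AP2B1 at 1000 bp was just outside and LSM12 at 1011 bp just inside the inner limit, while POU2AF1 at 3000 bp was inside and ASNSD1 at 3002 bp outside the outer one.

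By the nearest peak edge, neither side of the TSS dominated. Of the overexpression peaks, 151 of 321 lay upstream (47.0%, 41.5 to 52.7) and 170 downstream, and of the wild-type peaks, 184 of 347 lay upstream (53.0%, 47.6 to 58.4) and 163 downstream. Over all peaks that do not cover their TSS, 45.7% of overexpression peaks and 48% of wild-type peaks lay upstream. The intervals of both lists include an even split. Placed by their summit, 295 of 779 overexpression peaks lay upstream (37.9%), against 52.3% of 436 wild-type peaks. Of those 779, 551 were annotated within 1 kb of a TSS and 228 were promoter-flank peaks. Summits lay upstream for 185 of the 551, so the 37.9% does not describe the promoter-flank peaks alone. By class, the overexpression list had 86 upstream and 93 downstream peaks at 1 to 2 kb, and 65 and 77 at 2 to 3 kb. The wild-type list had 103 upstream and 96 downstream at 1 to 2 kb, and 81 and 67 at 2 to 3 kb.

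**Figure D1:**
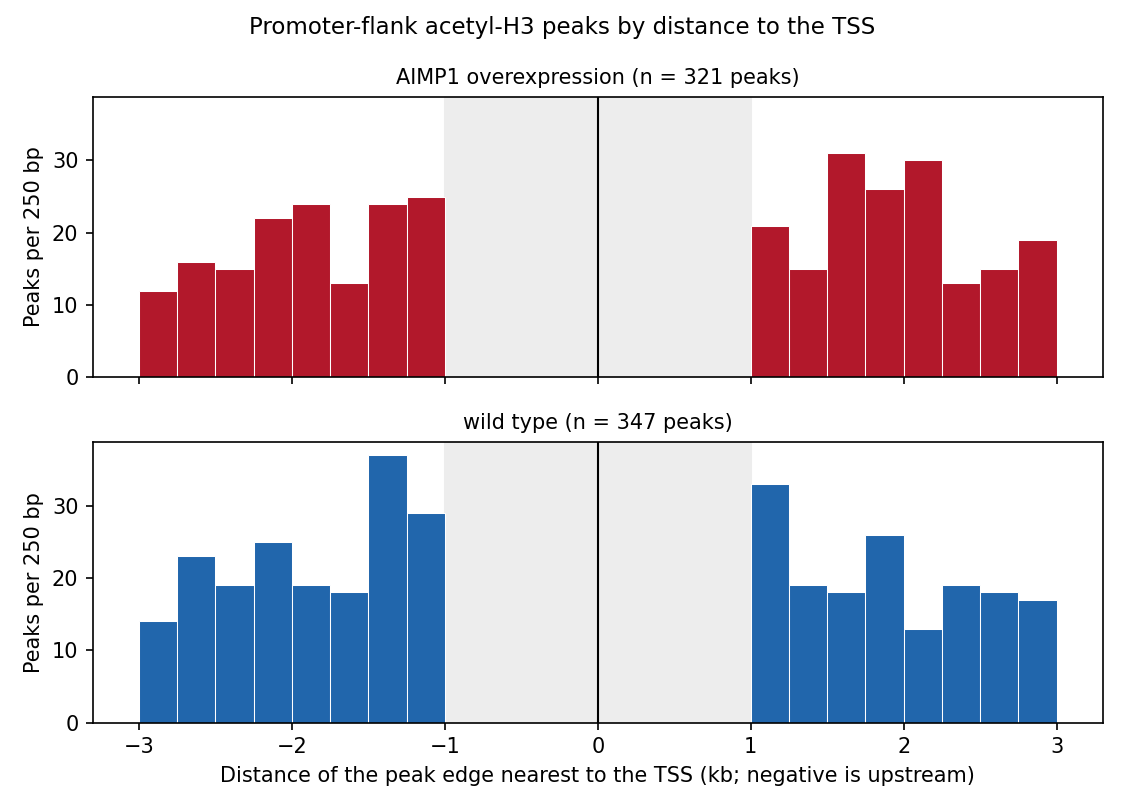
Number of promoter-flank peaks per 250 bp of distance from the TSS (kb, negative upstream) to the nearest peak edge, for overexpression (top) and wild type (bottom). The grey band within 1 kb is empty by definition, and 151 of 321 overexpression peaks and 184 of 347 wild-type peaks lie left of the TSS.

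A TSS peak at the same gene was common in overexpressing cells and uncommon in wild-type cells. In the overexpression list, 187 of 321 promoter-flank peaks (58.3%, 52.6 to 63.7) belonged to a gene that also had a peak within 1 kb of a TSS in the same list, against 48.9% of its peaks outside promoters. In the wild-type list this held for 43 of 347 (12.4%, 9.12 to 16.3), against 10.3% of its peaks outside promoters. The match was by gene, and the TSS peak could lie at another start of that gene. Any TSS peak of the same list lay within 3 kb for 107 of the 187 and 19 of the 43. The lists differed in how many genes could qualify, since 6661 of 20056 protein-coding genes had a TSS peak in overexpressing cells, against 1209 in wild-type cells. Among peaks with p of at most 1e-05 the share was 47.5% for overexpression and 2.86% for wild type (1 of 35). That cutoff also applied to the TSS peaks, and left 5985 of 7979 in the overexpression list and 270 of 1392 in the wild-type list. With the overexpression list cut to 4828 peaks, its share was 32.6% (15 of 46).

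The pattern differed when TSS peaks were taken from the other list. The gene of a wild-type promoter-flank peak had a TSS peak in overexpressing cells in 199 of 347 cases (57.3%, 52.0 to 62.6). Over all wild-type peaks the share was 53.1%, within that interval. It was 42.8% for wild-type peaks outside promoters and 74.8% for wild-type peaks within 1 kb. The gene of an overexpression promoter-flank peak had a wild-type peak within 1 kb of a TSS in 37 of 321 cases (11.5%, 8.25 to 15.5). Over all overexpression peaks the share was 13.6%, with 10.8% for those outside promoters and 14.2% for those within 1 kb. In neither list was there a peak within 1 kb of a TSS for the genes of 128 overexpression peaks (39.9%) and 141 wild-type peaks (40.6%). Outside promoters these shares were 49.5% for overexpression and 55.2% for wild type. Over all peaks they were 8.79% and 38.2%, where TSS peaks cannot qualify. In both lists there was one for the genes of 31 overexpression peaks and 36 wild-type peaks.

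Many overexpression promoter-flank peaks stood close to a peak that reached within 1 kb of a TSS. The gap to the nearest such peak of any gene in the same list was at most 3 kb for 113 overexpression peaks (35.2%) and 24 wild-type peaks (6.92%). For peaks outside promoters it was at most 3 kb for 51 of 1480 overexpression peaks (3.45%) and 5 of 3089 wild-type peaks (0.162%). The class limits themselves place a promoter-flank peak near a TSS, so some of this closeness is fixed by the rule. At a gap of at most 1 kb were 60 overexpression peaks (18.7%) and 9 wild-type peaks (2.59%). Among downstream overexpression peaks 41 of 170 had a gap of at most 1 kb (24.1%, 17.9 to 31.3), and among upstream ones 19 of 151 (12.6%, 7.75 to 19.0). These intervals overlap, which does not show that the shares agree, and the difference was not tested. The wild-type counts ran the other way, with 2 of 163 downstream (1.23%, 0.149 to 4.36) and 7 of 184 upstream (3.80%, 1.54 to 7.68).

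**Figure D2:**
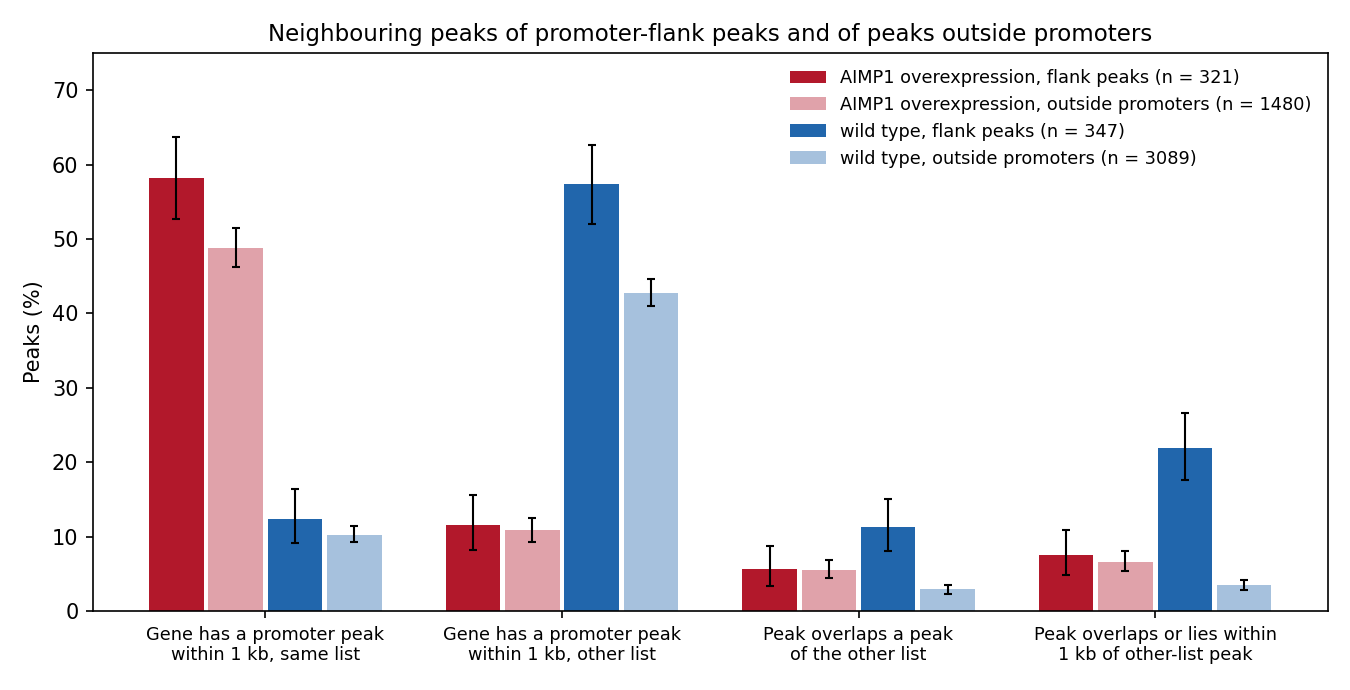
Share of peaks (%) with the neighbour named below each group of bars, for promoter-flank peaks (dark) and peaks outside promoters (pale), for overexpression (red) and wild type (blue), with exact 95% intervals. The gene of the flank peak had a promoter peak in the same list for 58.3% of overexpression peaks and 12.4% of wild-type peaks, and in the other list for 11.5% of overexpression peaks and 57.3% of wild-type peaks.

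Few promoter-flank peaks were shared by position. Of the overexpression peaks, 18 of 321 overlapped a wild-type peak by at least 1 bp (5.61%, 3.36 to 8.72), against 10.9% of all overexpression peaks, 12.1% of those within 1 kb of a TSS and 5.54% of those outside promoters. Of the wild-type peaks, 39 of 347 overlapped an overexpression peak (11.2%, 8.12 to 15.0), against 22.2% of all wild-type peaks, 68% of those within 1 kb of a TSS and 2.88% of those outside promoters. These shares changed when the overexpression list was cut. With the overexpression list cut to its 4828 strongest peaks by p, 7 of 46 of its promoter-flank peaks overlapped (15.2%). The wild-type list was left whole, and its share was then 8.07%, so the order of the lists turned, on 7 overexpression peaks. The 46 had a median width of 1957.5 bp and a median fold of 8.395, beside 1300 bp and 5.76 for all 321. Since the wild-type list was whole, no overexpression peak could gain or lose an overlap. The overexpression share therefore moved only through which peaks were kept, and the wild-type share could only fall. The part of strength and width in the overexpression share was not tested. A fold of at least 6.11, applied to both lists, left 7128 overexpression peaks and 177 wild-type peaks. The shares were then 1.45% for overexpression and 33.3% for wild type, the last being 3 of 9 peaks. With 177 wild-type peaks left to meet, a low overexpression share was largely set by the cutoff. The cutoff was common to both lists, though folds rank peaks within a list only. Of the 39 wild-type peaks, 12 overlapped an overexpression promoter-flank peak and 27 an overexpression peak within 1 kb of a TSS, 24 of these for the same gene. Of the 18 overexpression peaks, 11 overlapped a wild-type promoter-flank peak, 3 a wild-type peak within 1 kb of a TSS and 4 a wild-type peak outside promoters.

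Peaks that lay close without overlapping were also counted. An overexpression peak overlapped or lay within 1 kb of 76 wild-type promoter-flank peaks (21.9%, 17.7 to 26.6). The share was 24.5% over all wild-type peaks, within that interval. It was 71.9% for wild-type peaks within 1 kb of a TSS and 3.5% for those outside promoters. In 37 of these 76 the peaks did not overlap, and each of the 37 lay beside an overexpression peak within 1 kb of a TSS of the same gene. A wild-type peak overlapped or lay within 1 kb of 24 overexpression promoter-flank peaks (7.48%, 4.85 to 10.9). The share was 12.3% over all overexpression peaks, 13.5% for those within 1 kb of a TSS and 6.62% for those outside promoters. Wild-type peaks at 1 to 2 kb overlapped in 30 of 199 cases (15.1%) and those at 2 to 3 kb in 9 of 148 (6.08%). The median gap to the nearest wild-type peak was 57414 bp for overexpression promoter-flank peaks, and the median gap to the nearest overexpression peak was 19141 bp for wild-type ones. Outside promoters these gaps were 74268 bp for overexpression peaks and 82676 bp for wild-type peaks. All overexpression peaks had a median width of 1621 bp and all wild-type peaks 828.5 bp, and the part of width in these shares was not tested.

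**Figure D3:**
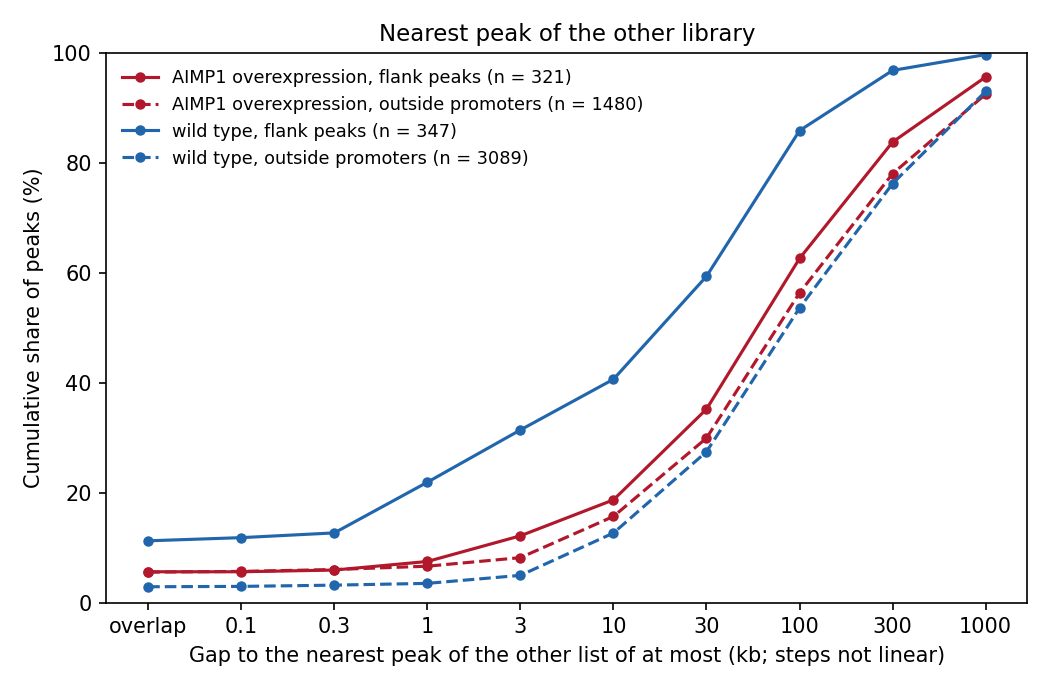
Cumulative share of peaks (%) whose gap to the nearest peak of the other list is at most the value on the horizontal axis (kb, unequal steps, starting at overlap), for promoter-flank peaks (solid) and peaks outside promoters (dashed) of the overexpression list (red) and the wild-type list (blue). Within 1 kb lie 7.48% of overexpression and 21.9% of wild-type promoter-flank peaks, against 6.62% and 3.5% outside promoters. Over all peaks, not drawn, the shares are 12.3% and 24.5%.

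In the overexpression list, promoter-flank peaks were closer in width and fold to peaks outside promoters than to TSS peaks. The authors computed fold enrichment and p peak by peak, and both describe and rank peaks within a list only. Overexpression promoter-flank peaks had a median width of 1300 bp (1241 to 1344, range 407 to 16258), against 1701 bp for peaks within 1 kb of a TSS and 1348 bp for peaks outside promoters. Their median fold was 5.76 (5.7 to 6, range 3.35 to 14), against 7.82 within 1 kb and 5.76 outside promoters. Wild-type promoter-flank peaks had a median width of 795 bp (751 to 831, range 449 to 4409), against 986 bp within 1 kb and 774 bp outside promoters. Their median fold was 4.49 (4.40 to 4.57, range 2.37 to 6.85), against 4.42 within 1 kb and 4.49 outside promoters. At p of at most 1e-05 were 101 overexpression promoter-flank peaks (31.5%), against 67.1% of that whole list, and 35 wild-type ones (10.1%), against 11.2%. Overexpression promoter-flank peaks that overlapped a wild-type peak had a median width of 1882 bp and a median fold of 7.06 (n = 18), beside 1296 bp and 5.76 for the others (n = 303). For wild-type ones the median width was 1024 bp and the median fold 4.19 (n = 39), beside 765 bp and 4.505 for the others (n = 308), so fold ran the other way. Across peaks, fold and width had a Spearman rho of -0.04 over 321 overexpression peaks and -0.43 over 347 wild-type peaks, where the peaks of a list share 1 library.

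**Figure D4:**
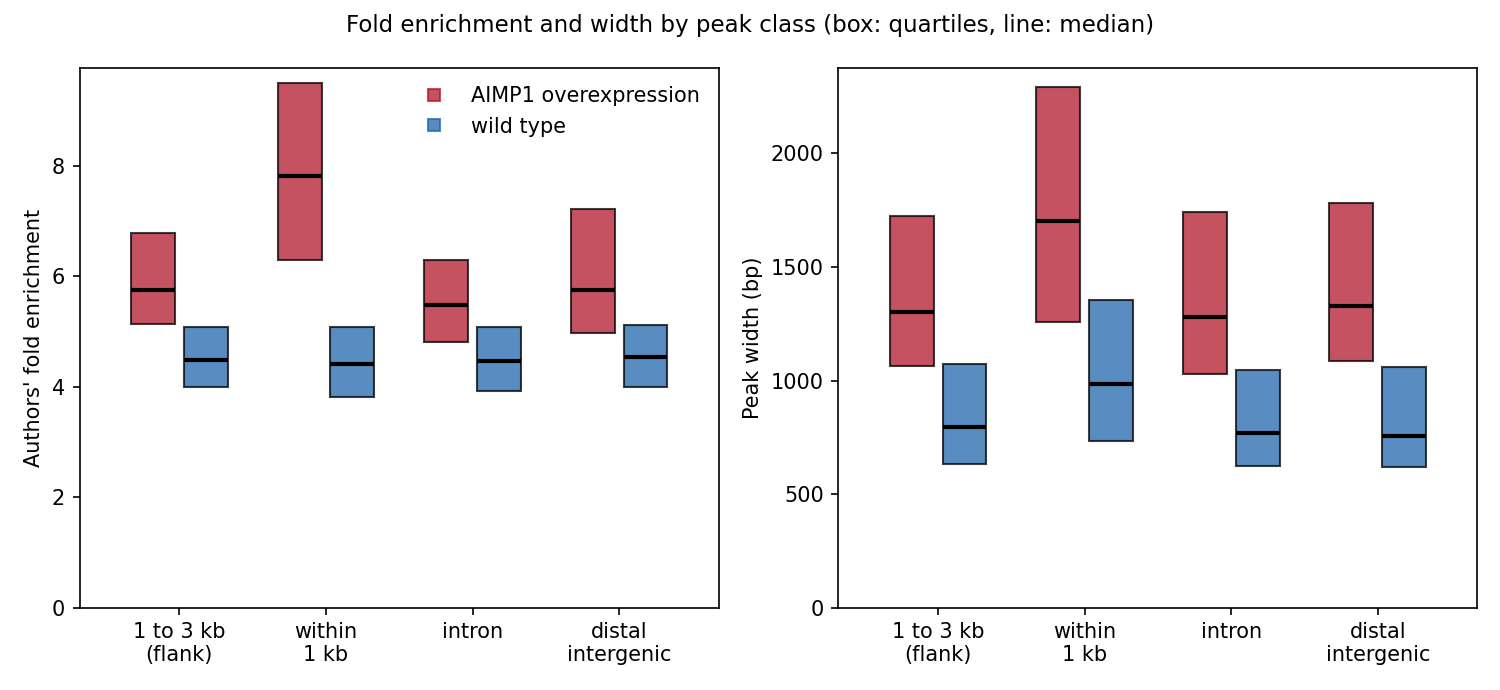
Authors' fold enrichment (left) and peak width in bp (right) by peak class, overexpression in red and wild type in blue, with boxes for quartiles and lines for medians. The overexpression promoter-flank median of 5.76 lies below the 7.82 of peaks within 1 kb of a TSS, while the wild-type medians lie at 4.49 and 4.42.

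Among the 10 overexpression promoter-flank peaks of highest fold, 4 belonged to genes with a TSS peak in the same list, beside 187 of all 321 (58.3%). The highest fold was 14, at GRIN2D, which encodes an NMDA receptor subunit, on chromosome 19 from 48396840 to 48398926, 1965 bp downstream of the TSS. An end of KDELR1, which encodes a receptor that retrieves proteins to the endoplasmic reticulum, lay within 1 kb of this peak, and a wild-type intronic peak with a fold of 4.58 lay 298 bp away. NFIL3, which encodes a leucine zipper repressor, had a peak with a fold of 13.6, and its own TSS peak with a fold of 11 lay 80 bp away. SOX11, a neural and mantle cell lymphoma transcription factor, had a peak with a fold of 13.1, 2250 bp downstream, and neither list had a peak within 1 kb of its TSS. ZFP36, which encodes an mRNA decay factor, had a peak with a fold of 12.53 at -2481 bp, upstream, with no overexpression peak within 1 kb of its TSS. In the wild-type list the TSS of ZFP36 was covered by a peak with a fold of 4.47, 1671 bp away. IER2, an immediate-early gene, had a peak 4877 bp wide with a fold of 10.66 and an authors' p-value of 4.91e-63, with no peak within 1 kb of its own TSS, and a TSS peak of another gene lay 119 bp away. PRR25 had a fold of 12.05, CRIP2 a fold of 10.48 and ZNF217, an oncogenic zinc finger gene, folds of 10.48 and 5.76.

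Other overexpression promoter-flank peaks lacked any peak within 1 kb of the TSS of their gene. NKX3-2, a skeletal homeobox gene, had a fold of 9.96, and a wild-type peak of the intergenic class with a fold of 6.05 lay 335 bp away. BHLHA9 had a fold of 9.75, MIR6088 a fold of 9.7 and MIR5571 a fold of 9.79. The MIR5571 peak, on chromosome 22 from 22882313 to 22884092, lay within 1 kb of an end of IGLV3-1, a variable segment of the immunoglobulin lambda locus. CDH9, a cadherin gene, had the widest of these peaks, 16258 bp, with a fold of 9.43 and an authors' p-value of 9.89e-122, and a wild-type promoter-flank peak with a fold of 4.7 lay 147058 bp from it. Of all 308 genes with an overexpression promoter-flank peak, with or without a TSS peak, 12 had at least 2 promoter-flank peaks. Among them was SLC12A7 with 3, at folds of 5.85, 5.76 and 6.29. SIPA1, which encodes a Rap GTPase activator, had folds of 8.5 and 7.93, and it had TSS peaks in both lists. The stronger peak lay 392 bp from an overexpression TSS peak of SIPA1 (fold 5.23) and overlapped a wild-type one (fold 4.94). It also lay within 1 kb of an end of RELA, the p65 subunit of NF-kB.

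Among the 10 wild-type promoter-flank peaks of highest fold, 6 belonged to genes with a TSS peak in the overexpression list, about the 57.3% found over all 347. NXPH4, which encodes a neurexophilin, and ANKAR both had a fold of 6.85, and each had an overexpression TSS peak, with folds of 7.34 at 2869 bp and 7.85 at 4147 bp. The ZNF827 peak, with a fold of 6.46, lay inside an overexpression peak of 5032 bp that covered the TSS with a fold of 14.49. The peaks of FBXO5, an inhibitor of the anaphase-promoting complex, and KCTD2 had folds of 5.71 and 5.42 and overlapped overexpression TSS peaks with folds of 9.96 and 11. RGS6, a regulator of G-protein signalling, had a fold of 6.19 and the smallest p of the class, 2.07e-14, with no peak within 1 kb of its TSS in either list. PC, the pyruvate carboxylase gene, had a fold of 6.28, LINC00881 6.14, SLC2A5, a fructose transporter gene, 6.09, SH3PXD2B 5.96 and KIAA1614 5.91, also without one. Of the 339 genes, 8 had at least 2 such peaks, among them NR4A1, which encodes an immediate-early nuclear receptor. Of its peaks, with folds of 4.47 and 4.57, the first lay 1121 bp from an overexpression TSS peak with a fold of 4.93 and the second overlapped it. KLHL20 had folds of 4.45 and 4.2, and LINC02608 had folds of 4.47 and 4. TRIM37 and ENDOV both had a fold of 5.71, with no TSS peak in either list.

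Of 628 genes with a promoter-flank peak in either list, 19 had one in both. They were 6.17% of the overexpression genes (3.75 to 9.47) and 5.60% of the wild-type genes (3.41 to 8.61), and the peaks overlapped at 11 of them. At MIR9-3HG, the host of a neural microRNA, the fold was 9.43 in overexpressing cells, against 5.63 in wild-type cells, and no peak reached within 1 kb of its TSS in either. NFIA, a developmental transcription factor, had folds of 9.35 and 9.94 in the overexpression list, against 3.94 in the wild-type list, where the peak overlapped the first of them. FKBP5, a glucocorticoid-induced co-chaperone, had 1 overexpression peak with a fold of 7.59, which overlapped both wild-type peaks, with folds of 4.29 and 6.25. At GATA3, a T cell transcription factor, the fold was 4.69 in overexpressing cells, against 3.76 in wild-type cells. FOXO3, a forkhead factor of stress responses, had a fold of 6.29 in overexpressing cells, against 3.72 in wild-type cells. RGS6 had 6.3 in overexpressing cells, against 6.19 in wild-type cells, and LPCAT1 had 3.9 in overexpressing cells, against 4.09 in wild-type cells. Overlapping peaks of BCAT2, which encodes a branched-chain amino acid transaminase, had 7.86 in overexpressing cells, against 5.28 in wild-type cells. At 8 genes the peaks lay apart, from 4845 bp at CLDN3 to 159159 bp at WWP2. The wild-type peaks of ADAMTSL4 and MACROD1 lay 180 bp and 34 bp from an overexpression TSS peak of the same gene.

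**Figure D5:**
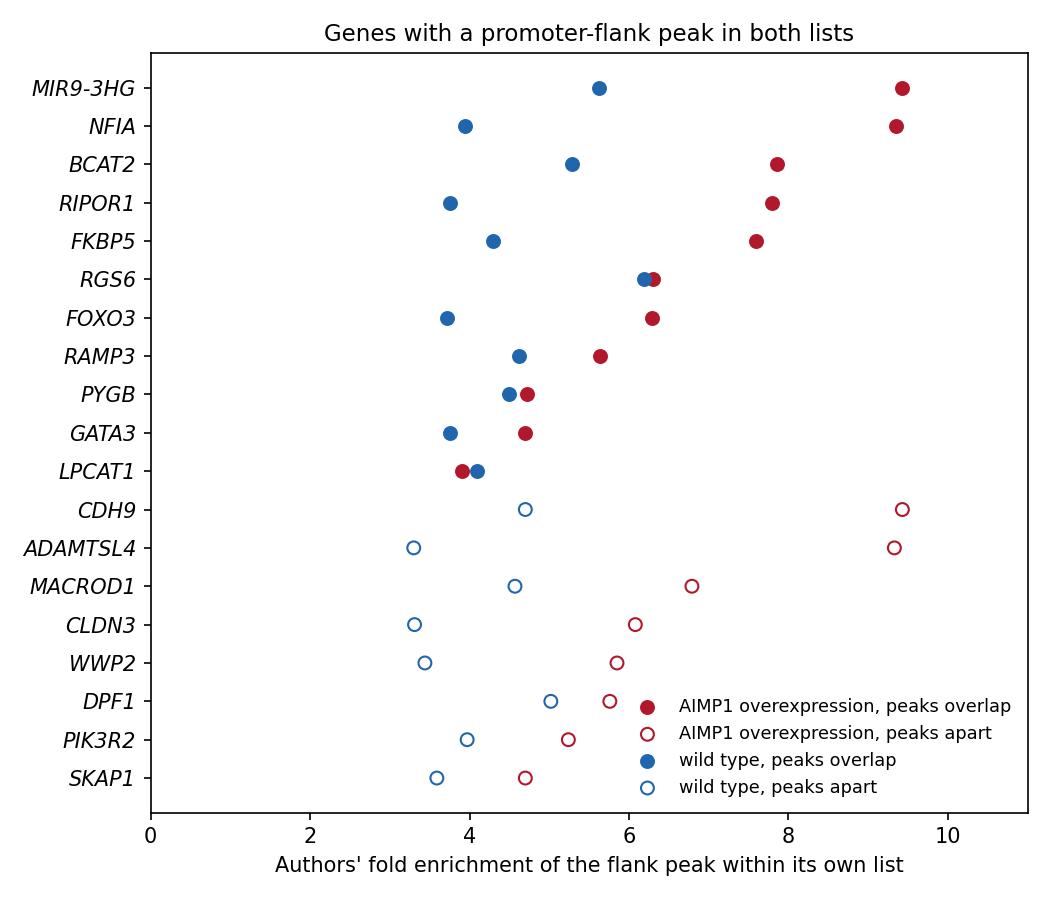
Authors' fold enrichment of 1 promoter-flank peak per gene (an overlapping one where any overlaps) for overexpression (red) and wild type (blue) at the 19 genes with one in both, filled where the peaks overlap (11 genes) and open where they lie apart (8 genes). Folds rank peaks within their own list, so the horizontal gap between colours is not a measured change.

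Few genes of the signalling and cell identity lists had a promoter-flank peak, though their share was above that of protein-coding genes. The gene lists were chosen with earlier results known, and this difference was not tested. Over 11 lists with 271 genes, 7 genes had one in overexpressing cells (2.58%) and 12 in wild-type cells (4.43%), 1 of them in both. In the background of protein-coding genes, 1.39% had such a peak among overexpression peaks, against 1.54% among wild-type peaks. In the RAS and MAPK list of 39 genes, the overexpression list had SPRY4 (fold 5.24), DUSP6 (5.76) and RASAL3 (6.29), which encode negative regulators of the pathway, and the wild-type list had SPRY2 (3.96). The peaks of SPRY4 and DUSP6 lay 75 bp and 267 bp from their own TSS peaks, with folds of 12.58 and 9.96. In the NF-kB list of 28 genes, the overexpression list had the receptor gene TNFRSF1A (5.03). The wild-type list had the adaptors TRAF1 (4.57) and TRAF6 (4.65), the ubiquitin ligase BIRC2 (4.25) and the inhibitor NFKBIA (5.71). TRAF6, BIRC2 and NFKBIA each had an overexpression peak within 1 kb of the TSS, with folds of 7.22, 8.12 and 8.91.

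The other lists added a few more genes. The overexpression list had IKZF1 (4.83), whose protein is degraded under lenalidomide in myeloma, 207 bp from its own TSS peak. It also had HSPA5 (5.24), the endoplasmic reticulum chaperone BiP. The wild-type list had POU2AF1 (5.53), a plasma cell co-activator, CREB3L2 (4.29), ITGA4 (4.57), an adhesion receptor gene, and SEL1L (3.72), a subunit of endoplasmic reticulum degradation. CDK6 (3.85), a cell cycle kinase gene, and HDAC9 (4.98), a histone deacetylase gene, were in the wild-type list as well. AIMP1 had 1 peak within 1 kb of its TSS in each list and no promoter-flank peak, and neither ANP32A nor GRB2 had a promoter-flank peak in either. As a check of the cell line, 8 of 12 plasma cell markers had a TSS peak in overexpressing cells and 2 of 12 in wild-type cells. Of all 20056 protein-coding genes, 6661 had one in overexpressing cells and 1209 in wild-type cells. For B cell stage markers the count was 2 of 8 in each list, and for erythroid and neuronal markers 1 of 6 for overexpression and 0 of 6 for wild type. For T and NK cell markers the count was 1 of 8 in each list, and for monocyte markers 0 of 6 for overexpression and 1 of 6 for wild type.

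Most promoter-flank peaks were annotated to protein-coding genes, at 291 of 321 overexpression peaks and 316 of 347 wild-type peaks. The shares over all peaks were not computed, so these counts are not shown to be particular to the class. Long noncoding RNAs took 22 overexpression peaks and 21 wild-type peaks, and microRNAs took 4 overexpression peaks and 7 wild-type peaks. The promoters of the wild-type genes had a median CpG observed over expected ratio of 0.810, with a RefSeq window for 277 of 339 genes. Those of the overexpression genes that also had a TSS peak had a median of 0.841, with a window for 146 of 178. The like set, wild-type genes that also had a wild-type TSS peak, had a median of 0.851, with a window for 36 of 42. Over all overexpression genes the comparison was void, because 237 of 308 had a window, fewer than 80%. Over protein-coding genes the median was 0.763, with a window for 15843 of 20056 (79.0%), also short of that share, and over all 27305 RefSeq promoters it was 0.580.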

How the data were processed

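Each group contributed 1 acetyl-H3 peak list, made from 1 library with no pooling. Per the labels' protocols, cells were fixed with 1% formaldehyde for 10 minutes, and fragments of 100 to 300 bp were selected. The submitters' processing notes list Bowtie2, cutadapt, FastQC and Trimmomatic. Which peak caller, threshold, genome build and input correction were used is not given in the sources used here. Per the file headers, each deposited peak has a fold ratio, a p-value, an annotation class, a signed distance to a TSS and 1 gene. The fold is the authors' ratio over a background the headers do not describe. Read depth is unknown.

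The classes and distances were taken from the deposited lists, and recomputing the distance from peak edges and gene ends gave the deposited value for 321 of 321 and 347 of 347 promoter-flank peaks. Overlap meant at least 1 bp. Of 8100 gene identifiers in the overexpression list 8088 matched RefSeq, and 3489 of 3497 in the wild-type list. Since the build of the lists is not named, coordinates of peaks are those of the lists and those of windows are GRCh38.p14. No p-value was computed. The overlap and distance steps were tested on simulated data. Tools were scipy 1.17.1, numpy 2.4.6 and pandas 2.3.3 under Python 3.11.15, with figures by matplotlib 3.10.9. Promoter windows were searched for 319 of 321 and 342 of 347 promoter-flank peaks, the rest being on a chromosome without windows.

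The members, the 11 gene lists and the named-gene rule were chosen with earlier results of these data known. The rule named the 10 highest folds of each list, the 8 highest without a peak within 1 kb of a TSS in either list, up to 8 per list that overlapped the other list, up to 8 genes with promoter-flank peaks in both, up to 5 genes with at least 2 peaks, gene list members, AIMP1, ANP32A and GRB2. Other names show the class limits, a window or a listed overlap, chosen after their values were seen.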

Additional observations from a re-analysis of the deposited data

How the results depend on the processing

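No paired analysis was possible because there was 1 library per group. Pairs of values are overexpression and wild type. At p of at most 1e-05, promoter-flank peaks numbered 101 and 35, or 1.54% and 6.45% of their lists. The share with a TSS peak was 47.5% and 2.86%, median width 1773 and 1545 bp, median fold 6.81 and 4.36, and 4 genes were in both lists. With a fold of at least 6.11, the median over the pooled lists, the counts were 138 and 9. They were 1.94% and 5.08% of the 7128 and 177 peaks left. The share with a TSS peak was 42.0% and 0% (0 of 9 peaks). The share overlapping was 1.45% and 33.3%, wild-type upstream share 66.7%, wild-type median width 856 bp, median fold 6.81 and 6.28, and 2 genes were in both. In lists of equal length, the overexpression list had 46 such peaks (0.953%), 32.6% with a TSS peak, 15.2% overlapping, a median width of 1958 bp and a fold of 8.395. The wild-type share overlapping was then 8.07%, and 7 genes were in both.

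The 1 to 2 kb class alone held 179 and 199 peaks (1.83% and 4.12%), and the 2 to 3 kb class 142 and 148 (1.45% and 3.07%). The wild-type share overlapping was 15.1% and 6.08% in these classes, and 7 genes were in both lists for each. Counting a TSS peak of any gene within 3 kb gave 35.2% and 6.92%, and a TSS peak in either list gave 59.4% for wild type. Overlap of 50% of either peak gave 7.78% of wild-type peaks, and a gap of at most 1 kb gave 21.9%.

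The following were chosen after seeing the data. Placing peaks by their summit gave 779 and 436 peaks (7.97% and 9.03%), so the gap between the lists narrowed. Of these overexpression peaks 37.9% lay upstream, but 551 of the 779 were annotated within 1 kb of a TSS. Overlap was then 12.1% and 25.7%, median width 1833 and 849.5 bp, overexpression median fold 6.43, and 41 genes were in both. Merging peaks within 1 kb of each other gave 2.80% of overexpression peaks, 49.6% with a TSS peak. Of 128 alternatives, 67 moved less than counting error or 1.5 times, and the cause of the others was not tested. Part of the 67 could not move, so their number does not measure stability. Selecting by distance returned the same peaks, the recomputed side equalled the deposited one, and the equal-length setting left the wild-type list uncut. The higher share of promoter-flank peaks in the wild-type list held in every setting listed. By summit, though, the intervals overlapped, at 7.44 to 8.52 for overexpression and 8.24 to 9.87 for wild type.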

Other observations

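The share of promoter-flank peaks varied between chromosomes. In the overexpression list 56 of 321 (17.4%) lay on chromosome 19, where they were 6.62% of its 846 peaks (5.04 to 8.51), against 3.28% over all chromosomes. Chromosome 21 held 17 among 199 peaks (8.54%, 5.06 to 13.3) and chromosome 7 held 32 among 615 (5.20%). In the wild-type list, where the share over all chromosomes was 7.19%, chromosome 19 held 17 among 190 peaks (8.95%, 5.30 to 13.9) and chromosome 21 held 1 among 25 (4%, 0.101 to 20.4). Both intervals include the share over all chromosomes. Chromosome 16 held 17 among 121 (14.05%, 8.40 to 21.5) and chromosome 17 held 23 among 174 (13.2%, 8.57 to 19.2). These chromosomes were picked after their values were seen.

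Reading the peak's summit in place of its edge brought in peaks of another class. Summits 1 to 3 kb from a TSS belonged to 551 overexpression peaks and 156 wild-type peaks annotated within 1 kb of one, which were 6.91% and 11.2% of that class. Of those, 185 overexpression and 77 wild-type summits lay upstream. Conversely, 93 overexpression and 67 wild-type promoter-flank peaks had their summit beyond 3 kb. The summit column was read as an offset from the peak's start, which was never beyond its width.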
